A study of Mus musculus with 6 samples.

Results

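Transcripts of the mouse carboxylesterase genes Ces1b, Ces1c, Ces1d, Ces1e, Ces1f, Ces1g, Ces3a and Ces3b were examined in liver, 8 of the 23412 genes in the count table and 8 of its 19 carboxylesterase genes. They were chosen by gene family, with their lower counts under liraglutide in these same libraries already known, so the difference between the groups is given for them as a description and not as a test. The 6 libraries came from livers of C57BL/6J mice, an inbred strain, labelled 8 weeks of age. All mice had eaten a high-fat diet for 4 weeks. Of the libraries, 3 are labelled as given liraglutide at 300 µg/kg under the skin for 3 days (Lira161, Lira162 and Lira164) and 3 as given PBS, phosphate-buffered saline, for 3 days (PBS155, PBS157 and PBS158). Liraglutide activates the receptor of glucagon-like peptide 1, a gut hormone that lowers appetite. Nothing in the labels states that the libraries of a group came from separate mice, and the spread given here may therefore be technical.

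Carboxylesterases are serine hydrolases that cut ester, thioester and amide bonds in drugs and in lipids. In the liver most of them sit in the lumen of the endoplasmic reticulum, held there by a short signal at the C-terminal end, and some take part in mobilising stored triglyceride for the assembly of very-low-density lipoprotein (VLDL). The product of mouse Ces1c lacks that signal and circulates in plasma, where it cleaves ester drugs. Mice carry tandem arrays of these genes, so closely related copies lie beside each other.

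All 8 genes had a lower mean under liraglutide, but to very unequal degrees. Ces1g, a lipid hydrolase gene, fell to 27.3% of its PBS level, Ces3b to 46.3% and Ces1d, which codes for triacylglycerol hydrolase, to 50.1%. Ces1f, Ces1e and Ces3a stood at 63.3%, 60.0% and 64.8% and did not pass the threshold. Ces1c and Ces1b stood at 88.3% and 77.2% and did not pass either. These percentages are 2 to the power of the fitted log2 fold change.

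The Ces1 members occupied 281 kb of chromosome 8 on the minus strand (93056728 to 93337308, GRCm38) in the order Ces1b, Ces1c, Ces1d, Ces1e, Ces1f, Ces1g. The Ces3 members lay 11.7 Mb further on, on the plus strand, within 45.3 kb (105048601 to 105093929). The ends of the coding sequences divide the genes into groups that the choice of members did not use. They are shown because they carry the codons of the retention signal. The last 30 bases before the stop codon and the stop codon are given 5′ to 3′ from GENCODE M21 transcripts (GRCm38), with the last 4 codons before the stop in capitals.
Ces1b (chr8:93056887-93056919, minus strand): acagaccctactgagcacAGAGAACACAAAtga
Ces1c (chr8:93099165-93099197, minus strand): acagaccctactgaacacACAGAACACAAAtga
Ces1d (chr8:93166255-93166287, minus strand): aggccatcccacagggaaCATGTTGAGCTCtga
Ces1e (chr8:93201404-93201436, minus strand): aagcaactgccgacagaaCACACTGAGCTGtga
Ces1f (chr8:93256429-93256461, minus strand): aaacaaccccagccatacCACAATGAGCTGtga
Ces1g (chr8:93302905-93302937, minus strand): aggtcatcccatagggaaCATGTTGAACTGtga
Ces3a (chr8:105058071-105058103, plus strand): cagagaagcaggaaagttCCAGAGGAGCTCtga
Ces3b (chr8:105093230-105093262, plus strand): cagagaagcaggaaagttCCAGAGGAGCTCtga
In Ces1d, Ces1e, Ces1f and Ces1g the last 4 codons fitted the common retention signal of liver carboxylesterases, a histidine, any residue, a glutamate and a leucine. Ces1b and Ces1c both ended in other codons and differed from each other within them. Ces3a and Ces3b had identical ends, which share the glutamate and leucine codons but have no histidine codon in the first place.

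Within Ces1, coding sequences were identical at 72.0% to 88.7% of alignment columns (15 pairs, median 77.3%). The closest pair was Ces1b with Ces1c, followed by Ces1d with Ces1g at 81.5%. Ces3a and Ces3b were 95.3% identical, and Ces1 with Ces3 pairs lay between 53.9% and 56.7% (12 pairs). Such likeness bears on the counts, because a read from a stretch that 2 genes share cannot be assigned to either. Of all 100-base windows of the longest coding transcript, 9.09% in Ces3a and 7.68% in Ces3b occurred without a mismatch in the other gene. In Ces1b and Ces1c 1.29% and 1.39% did so, and in Ces1d, Ces1e, Ces1f and Ces1g 0 windows were shared with any annotated gene. With 50-base windows the shares were 30.9% and 26.1% in the Ces3 pair, 11.6% in Ces1b, 17% in Ces1c and between 1.28% and 3.21% in the others. Not given in the sources used here are the read length and what was done with reads that matched several places. Hba-a1 and Hba-a2, near-identical globin genes, had 0 counts in all 6 libraries, and Ass1, an abundant urea cycle enzyme, had 0 to 4. Why these counts were so low was not tested. Because of the shared windows, values of the Ces3 pair and of Ces1b and Ces1c are uncertain in how they divide between the genes. Their level is uncertain too, and is too low if reads that matched several places were not counted.

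**Figure D1:**
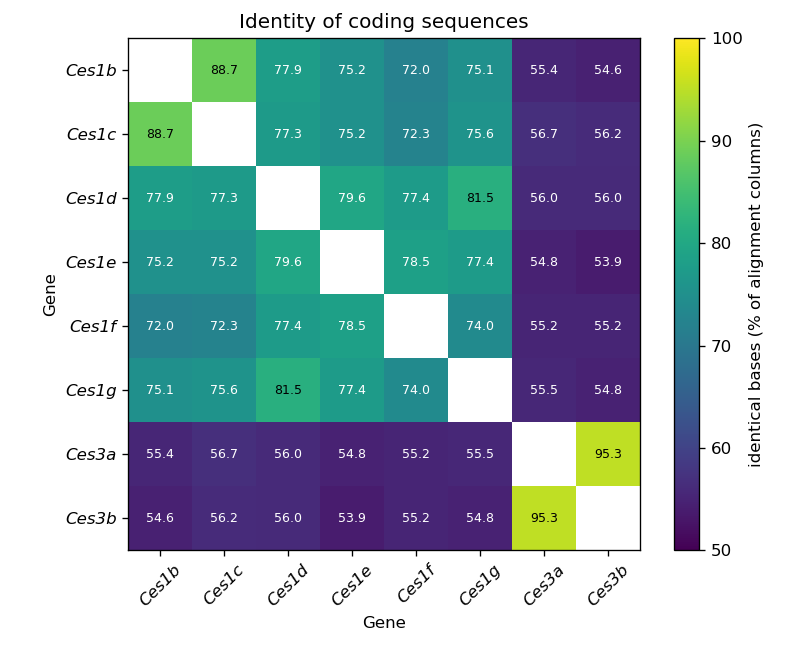
Identity of the coding sequences of the 8 genes, as the percentage of alignment columns with the same base, by colour and number. Ces3a and Ces3b stand at 95.3%, Ces1b and Ces1c at 88.7%, and every Ces1 with Ces3 pair at 56.7% or less.

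Total counts ranged from 20888991 to 27007182 per library, and single members had from 584 (Ces1g in Lira161) to 67489 counts (Ces3a in PBS155). All 8 passed the low-count filter. Levels are given in CPM, counts-per-million computed on TMM-scaled library sizes, with SD over 3 libraries per group. The fit was edgeR's quasi-likelihood test across all 12626 tested genes, in which a gene is called when its Benjamini-Hochberg adjusted p is below 0.05. It called 8.77% of the tested genes in either direction. Of the called genes 46.5% were higher, against 57.2% when libraries were scaled by their totals alone.

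Among the 8 members 3 were called, all lower, and 5 were not, beside 4.69% of all tested genes called lower. The 8 log2 fold changes had a median of -0.70, against 0.011 over all tested genes. In 5 members every liraglutide library lay below every PBS library, a pattern that 16.4% of the tested genes showed. Because the members were picked with this contrast in view, these counts describe them and show nothing further. The 8 genes together held 4602, 4302 and 5733 CPM in Lira161, Lira162 and Lira164 against 7103, 6710 and 7663 CPM in PBS155, PBS157 and PBS158. These sums did not overlap between the groups. In bulk liver, fewer hepatocytes and less RNA per hepatocyte cannot be told apart.

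**Figure D2:**
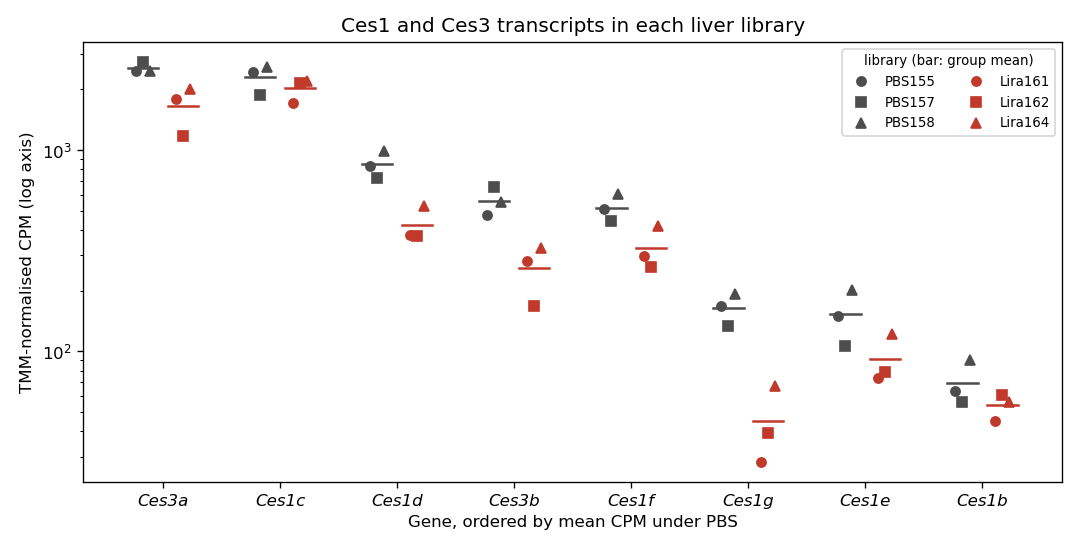
CPM of the 8 genes in each library on a log axis, grey for PBS and red for liraglutide, with a bar at each group mean. For Ces1d, Ces1f, Ces1g, Ces3a and Ces3b all red points lie below all grey points, and for Ces1b, Ces1c and Ces1e they overlap.

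Per kilobase of the longest coding transcript, Ces1c and Ces3a stood highest under PBS, at 1253 ± 203 and 1249.8 ± 68.9 CPM per kb, and their ranges overlapped. Ces1d followed at 423 ± 64.3 CPM per kb, then Ces1f at 268 ± 41.3 and Ces3b at 233 ± 38.1, whose ranges also overlapped. Ces1e at 73.5 ± 22.9 and Ces1g at 68.9 ± 12.5 overlapped as well, and Ces1b was lowest at 35.6 ± 9.39. By mean CPM Ces1c and Ces3a ranked 51 and 53 among the 12626 tested genes. Under liraglutide the order was the same except at its lower end, where Ces1b at 27.4 ± 4.03 CPM per kb and Ces1g at 18.8 ± 8.44 had exchanged places with overlapping ranges. There Ces1d at 212 ± 43.0 and Ces1f at 170 ± 43.0 overlapped too. The ranges of Ces1f and Ces3b, at 108 ± 34.2, nearly touched. The lowest Ces1f value was 136.6 and the highest Ces3b value 136.2 CPM per kb. The order of Ces1f and Ces3b turned when the length of all annotated exons was used, a choice made after seeing the data. Ces1f was then at 157.4 and Ces3b at 218 CPM per kb under PBS, and at 99.6 and 101 CPM per kb under liraglutide.

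Ces1d codes for the enzyme known as triacylglycerol hydrolase, which mobilises stored triglyceride for VLDL in hepatocytes. It was at 376, 375 and 525 CPM in Lira161, Lira162 and Lira164 and at 833, 728 and 985 CPM in PBS155, PBS157 and PBS158. The highest liraglutide library stood well below the lowest PBS library. The mean fell from 849 ± 129 to 425 ± 86.1 CPM (log2 fold change -0.997 ± 0.17, SE). Ces1d was called under all 12 alternatives run for it, with log2 fold changes between -1.19 and -0.88.

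Ces1g codes for an enzyme that hydrolyses triglyceride and cholesteryl ester, and mice without it accumulate liver fat. It had 28.2, 39.3 and 67.3 CPM in Lira161, Lira162 and Lira164, against 168, 133 and 192 CPM in PBS155, PBS157 and PBS158. Every liraglutide library was below all PBS libraries, and Lira161 was the lowest of all. The mean fell from 165 ± 29.8 to 44.9 ± 20.2 CPM (log2 fold change -1.87 ± 0.34). It was not called without Lira162 (-1.79), PBS155 (-1.87), PBS157 (-2.01) or PBS158 (-1.75), nor without the low-count filter (-1.87).

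Ces1f is listed by RefSeq under the synonym TGH-2, after triacylglycerol hydrolase. Its values were 298, 263 and 421 CPM in Lira161, Lira162 and Lira164 and 508, 443 and 601 CPM in PBS155, PBS157 and PBS158. The groups did not overlap, but Lira164 came close to PBS157. The means were 327 ± 82.8 and 517 ± 79.5 CPM (log2 fold change -0.66 ± 0.19), which did not pass. It was called by DESeq2's Wald test (-0.66) and without Lira164 (-0.89).

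Ces1e codes for egasyn, which anchors beta-glucuronidase in the endoplasmic reticulum of mouse liver. It was at 73.3, 79.0 and 122 CPM in Lira161, Lira162 and Lira164 and at 149, 106 and 201 CPM in PBS155, PBS157 and PBS158. Lira164 exceeded PBS157, so the groups overlapped. The log2 fold change was -0.74 ± 0.28, on means of 91.3 ± 26.4 and 152 ± 47.5 CPM, and did not pass. DESeq2's Wald test called it (-0.74). Its log2 fold change was -0.49 without PBS158 and -1.01 without Lira164.

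Ces1c, the plasma carboxylesterase gene, was at 1707, 2147 and 2209 CPM in Lira161, Lira162 and Lira164 and at 2435, 1869 and 2566 CPM in PBS155, PBS157 and PBS158. PBS157 lay below Lira162 and Lira164. Its means were 2021 ± 274 and 2290 ± 371 CPM (log2 fold change -0.18 ± 0.16). Ces1b had 45.1, 60.5 and 56.1 CPM against 63.2, 55.7 and 90.7 CPM in the same order of libraries. Its groups also overlapped, at means of 53.9 ± 7.91 and 69.9 ± 18.5 CPM (log2 fold change -0.37 ± 0.19). Neither gene was called in any of the 12 alternatives, but without PBS158 the log2 fold change of Ces1b was -0.14 and without Lira161 that of Ces1c was -0.07.

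Ces3a was at 1792, 1171 and 2006 CPM in Lira161, Lira162 and Lira164 and at 2473, 2720 and 2478 CPM in PBS155, PBS157 and PBS158. The groups did not overlap, and the liraglutide libraries were spread more widely than the PBS libraries. The means of 1657 ± 434 and 2557 ± 141 CPM gave a log2 fold change of -0.63 ± 0.19, which did not pass. It was called without Lira164 (-0.80), without the low-count filter (-0.63) and by DESeq2's Wald test (-0.63). Its neighbour Ces3b had 282, 168 and 327 CPM under liraglutide and 473, 655 and 550 CPM under PBS, in the same order. Again no liraglutide library reached the PBS libraries, and Lira162 was lowest in both genes. The mean of Ces3b fell from 559 ± 91.6 to 259 ± 82.1 CPM (log2 fold change -1.11 ± 0.25). Without Lira161 (-1.18), PBS157 (-0.98) or PBS158 (-1.12) Ces3b was not called.

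**Figure D3:**
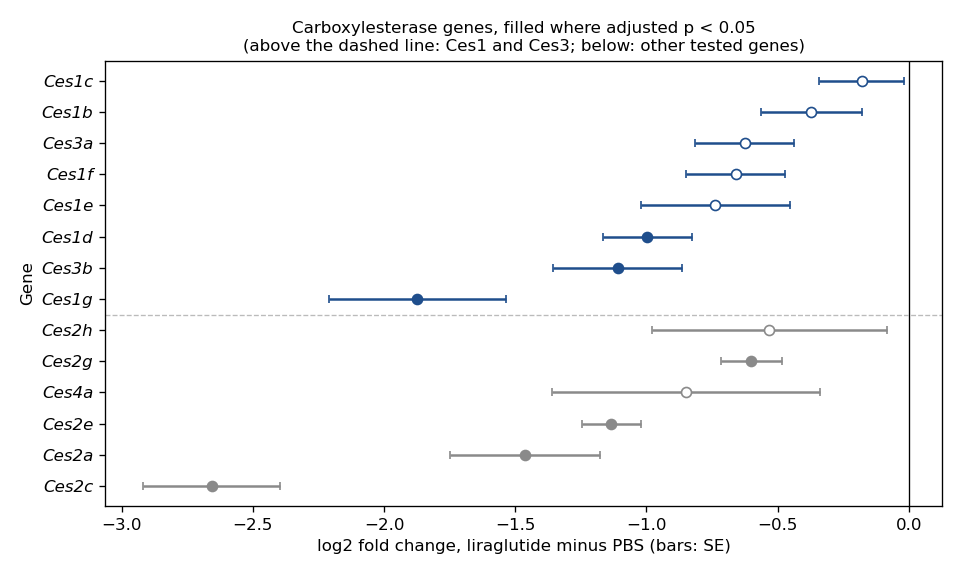
Log2 fold change of liraglutide minus PBS with its SE for the 8 genes, above the dashed line, and the other tested carboxylesterase genes, below it, filled where the adjusted p was below 0.05. All estimates lie below 0, from -0.18 for Ces1c to -1.87 for Ces1g among the members.

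Since reads may be divided wrongly between copies, the counts were also summed within each subfamily before the same fit. The Ces1 sum was 2959 ± 449 CPM under liraglutide and 4051 ± 677 under PBS (log2 fold change -0.45 ± 0.17) and was not called. The Ces3 sum was 1912 ± 515 against 3122 ± 234 CPM (-0.71 ± 0.20) and was not called, but was without Lira164 (-0.88). Reads that match several genes, if they were not counted, are missing from these sums too.

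Ratios within a library do not depend on how libraries are scaled. For every 100 counts of Ces1c there were 22.0, 17.5 and 23.7 counts of Ces1d in Lira161, Lira162 and Lira164 and 34.2, 39.0 and 38.4 in PBS155, PBS157 and PBS158. Ces1g had 1.65, 1.83 and 3.04 counts per 100 of Ces1c under liraglutide and 6.92, 7.12 and 7.49 under PBS. These ratios did not overlap between the groups, and their spread under PBS was narrow for Ces1g (7.18 ± 0.294). Ces1e (4.49 ± 0.926 against 6.56 ± 1.14) and Ces1f (16.2 ± 3.55 against 22.7 ± 1.56) were also apart. Ces1b, at 2.67 ± 0.142 against 3.04 ± 0.473 counts per 100 of Ces1c, overlapped. Of the Ces3 pair, Ces3b was apart (13.1 ± 4.61 against 25.3 ± 8.52) and Ces3a overlapped (83.5 ± 26.0 against 115 ± 26.9). The ratio to Ces1c was thus lower in every liraglutide library for 5 of the other 7 members, and the same held for 4.40% of the 12625 other tested genes. Of these 5 members Ces1d, Ces1e, Ces1f and Ces1g have the retention codons and Ces3b does not. The ratios come from the contrast that the members were picked on, and nothing further is read from them.

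Libraries of the same group also differed from each other. How many of all tested genes show the orders below was not counted, so they are not read as traits of a subfamily. In all 6 Ces1 members PBS158 was the highest and PBS157 the lowest of the PBS libraries. Akr1d1, a gene outside the family that is described below, also had PBS158 highest and PBS157 lowest. In both Ces3 members, which may share reads, PBS157 was the highest. Relative to the mean log2 level under PBS, PBS157 stood between -0.47 (Ces1e) and -0.21 (Ces1d and Ces1f) in the Ces1 members and at 0.09 in Ces3a and 0.24 in Ces3b. Under liraglutide Lira164 was the highest library for 7 of the 8 members, the exception being Ces1b. Averaged over the 8 members, the relative log2 level was -0.997, -1.02 and -0.49 in Lira161, Lira162 and Lira164.

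**Figure D4:**
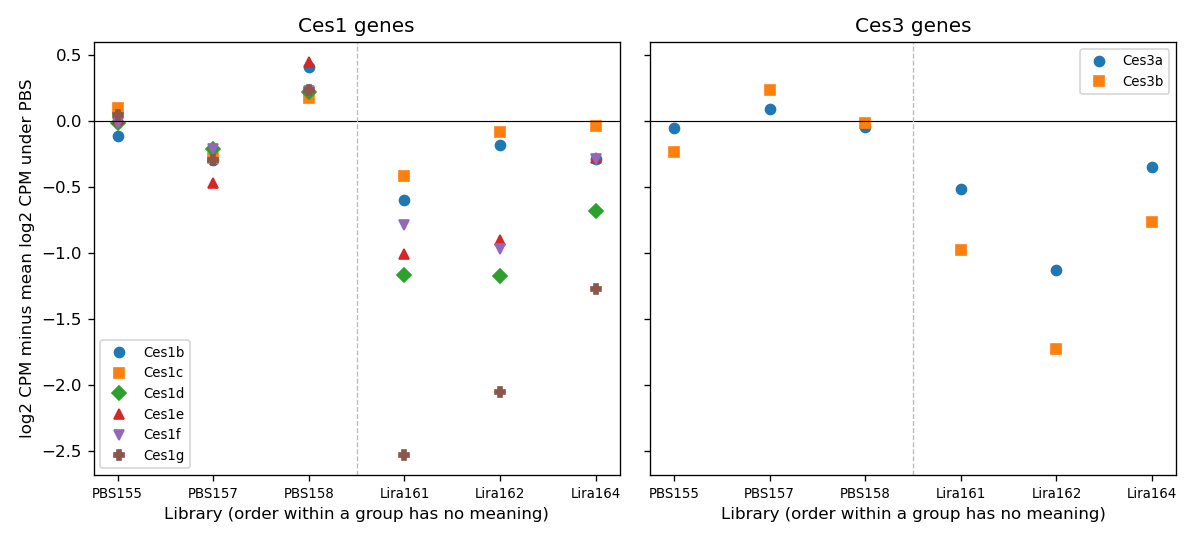
Log2 CPM of each gene minus its mean log2 CPM under PBS, by library, for the Ces1 genes on the left and the Ces3 genes on the right. PBS157 is the lowest PBS library for all Ces1 genes and the highest for both Ces3 genes, and Lira164 is the highest liraglutide library for 7 of the 8 genes.

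Promoter sequences from RefSeq (GRCm38.p6, 250 bases before to 50 after a transcription start) were at hand for 5 members, Ces1b, Ces1c, Ces1e, Ces1g and Ces3b. Those of Ces1b, Ces1c and Ces1g are shown because the groups overlapped in Ces1b and Ces1c, while Ces1g had the largest fold change of the 8. The groups overlapped in Ces1e too, but its promoter is not printed. The printed promoters run 5′ to 3′, with the bases TTATGTAA in capitals.
Ces1b (chr8:93079891-93080190, minus strand): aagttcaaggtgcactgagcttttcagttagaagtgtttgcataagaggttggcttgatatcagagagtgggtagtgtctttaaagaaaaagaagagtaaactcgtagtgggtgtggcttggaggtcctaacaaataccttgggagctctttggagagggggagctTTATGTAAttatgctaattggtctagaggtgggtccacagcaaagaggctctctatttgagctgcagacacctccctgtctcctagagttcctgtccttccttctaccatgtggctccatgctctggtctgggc
Ces1c (chr8:93131234-93131533, minus strand): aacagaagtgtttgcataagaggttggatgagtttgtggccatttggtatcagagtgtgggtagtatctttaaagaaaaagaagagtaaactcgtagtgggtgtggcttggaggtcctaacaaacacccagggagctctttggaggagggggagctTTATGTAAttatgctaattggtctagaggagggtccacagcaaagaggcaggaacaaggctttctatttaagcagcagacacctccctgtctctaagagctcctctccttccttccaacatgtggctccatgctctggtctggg
Ces1g (chr8:93337160-93337459, minus strand): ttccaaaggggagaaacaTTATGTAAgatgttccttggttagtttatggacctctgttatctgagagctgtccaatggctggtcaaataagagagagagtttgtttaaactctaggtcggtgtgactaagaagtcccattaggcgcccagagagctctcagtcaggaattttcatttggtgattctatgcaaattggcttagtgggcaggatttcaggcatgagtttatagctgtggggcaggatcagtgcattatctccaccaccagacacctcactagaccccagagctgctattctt
Ces1b and Ces1c were identical at 253 of 297 aligned columns (85.2%), with a longest shared run of 58 bases. Ces1c and Ces1g were identical at 59.4% of 283 aligned columns, with a longest shared run of 10 bases. The sequence TTATGTAA was picked after reading these promoters. Searched on both strands, it was present in 4 of the 5 members' promoters and in 0.938% of the 32851 promoters in the table. The promoter of Ces1a, a Ces1 gene with 1 to 5 counts per library, held it too. Since the sequence was picked from the members' promoters, and those of Ces1b and Ces1c are so alike, these shares make no test. TTATGTAA began 84 bases before the start in the Ces1b promoter printed here, 94 in Ces1c, 81 in Ces1e and 232 in Ces1g. At the other listed start of Ces1b, 93080017, it began 7 bases before. It overlapped no other motif searched. Ces3b lacked these letters. Of the other motifs searched on both strands, TATAAA was in Ces1g and Ces3b (13.6% of all promoters), CCAAT in Ces1b, Ces1c, Ces1g and Ces3b (37.4%), GTTAAT in Ces3b (7.10%) and AGGTCA in none of the 5 (16.3%). For Ces1b, counts of motifs are over both of its listed starts. Ces1g, which was called, and Ces1b, Ces1c and Ces1e, which were not, thus all held TTATGTAA, and a match of letters shows no binding.

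The table held 11 other carboxylesterase genes, of which 6 were tested and 4 fell, beside 4.69% of all tested genes called lower. Those 4 were all from the Ces2 array between the Ces1 and Ces3 genes. This list too was chosen with earlier results of these data known, so the count is a description. Ces2e fell from 129 ± 12.6 to 58.8 ± 5.60 CPM (edgeR log2 fold change -1.13 ± 0.11, adjusted p = 0.00272) and Ces2g from 40.4 ± 0.892 to 26.7 ± 3.97 CPM (-0.60 ± 0.12, adjusted p = 0.0156), beside Ces2c (-2.66 ± 0.26, adjusted p = 0.00299) and Ces2a (-1.46 ± 0.29, adjusted p = 0.0287). Ces2c and Ces2e passed under every alternative. Ces2g did not without Lira161 (-0.52), Lira162 (-0.56) or PBS158 (-0.60), and Ces2a did not without Lira161 (-1.43), PBS155 (-1.57), PBS157 (-1.42) or PBS158 (-1.41), nor without the low-count filter (-1.47). Ces4a was at 2.65 ± 1.74 against 4.75 ± 1.49 CPM and Ces2h below 1 CPM, and neither passed. Ces1a, the remaining Ces1 gene of the table, had 1 to 5 counts per library, Ces2b 0 to 8 and Ces2d-ps 4 to 11, while Ces2f and Ces5a had 0.

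Other genes that act on the same lipids were described from a list. Of its 17 tested genes of neutral lipid hydrolysis and droplet control, 10 rose and 1 fell, with a median log2 fold change of 0.51. Among all 12626 tested genes, 515 were called higher and 592 lower. This list and those below were chosen with earlier results of these data known, so their counts are a description. Nceh1, a cholesteryl ester hydrolase gene, rose from 68.1 ± 10.3 to 138 ± 10.8 CPM (edgeR log2 fold change 1.02 ± 0.13, adjusted p = 0.00399). Ddhd2, a triglyceride lipase gene, rose from 27.4 ± 4.34 to 52.5 ± 4.73 CPM (0.94 ± 0.13, adjusted p = 0.00581), and the droplet coat gene Plin2 also rose (1.03 ± 0.18, adjusted p = 0.0102). All 3 kept an adjusted p below 0.05 under every alternative. The number of the 17 that rose was 4 without Lira161 or PBS158 and 5 without Lira162 or PBS155. The gene that fell was Aadac, an arylacetamide deacetylase of the endoplasmic reticulum, from 404 ± 21.6 to 234 ± 42.8 CPM (-0.78 ± 0.14, adjusted p = 0.0128), which did not pass without PBS158 (-0.74, adjusted p = 0.0507). Aadac was also the one gene to pass in a further list of 13 genes, most of them for ester or epoxide hydrolases. The median of that list was -0.0008, with 3 lower and 2 higher at an unadjusted p below 0.05. Of these 13, Ephx1, an epoxide hydrolase gene, was called higher by DESeq2's Wald test (0.64), with library totals (0.70), without the low-count filter (0.64) and without Lira164 (0.81), where Gusb was called higher too.

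Of 18 genes of VLDL assembly, 2 were lower and 0 higher in edgeR (median 0.022), against 2 higher at an unadjusted p below 0.05. The lower genes were Dgat2, which makes triglyceride (edgeR log2 fold change -0.53 ± 0.13, adjusted p = 0.0389), and Sort1, a sorting receptor gene (-0.84 ± 0.18, adjusted p = 0.0288). Dgat2 did not pass with library totals (-0.47) or without Lira161 (-0.46), Lira162 (-0.51), PBS155 (-0.55) or PBS158 (-0.44), nor Sort1 without Lira161 (-0.87), PBS155 (-0.75), PBS157 (-0.87) or PBS158 (-0.90). DESeq2's Wald test and the fit without Lira164 each called 2 genes of this list higher. Of the receptors that return such proteins to the endoplasmic reticulum, neither tested gene passed in edgeR or by DESeq2's Wald test (0 also at an unadjusted p below 0.05), and Kdelr1 was at 85.3 ± 4.88 against 83.4 ± 4.13 CPM.

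Among 21 liver transcription factor genes, Srebf1 (edgeR log2 fold change -1.42 ± 0.28, adjusted p = 0.0287) and Srebf2 (-0.75 ± 0.15, adjusted p = 0.0191), which control lipid synthesis, fell. Hnf4a, a master regulator of hepatocyte genes, rose from 751 ± 85.6 to 1081 ± 78.7 CPM (0.53 ± 0.13, adjusted p = 0.0338). Hnf4a did not pass without Lira161 (0.46), Lira162 (0.55), PBS155 (0.48) or PBS157 (0.46). Srebf1 did not without Lira161 (-1.32), Lira162 (-1.33), PBS155 (-1.20) or PBS158 (-1.38) or the low-count filter (-1.42), and Srebf2 not without Lira161 (-0.66), Lira162 (-0.77) or PBS158 (-0.60). Without Lira164 the list had 5 lower and 3 higher genes. With all libraries, 5 were lower and 3 higher in edgeR at an unadjusted p below 0.05. Nr1i2 was called higher with library totals, without the low-count filter, at a mean CPM of at least 5 and by DESeq2's Wald test. Nr1h4 was called lower without PBS155.

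The profiles most like those of 2 members were sought among 9246 genes with a mean of at least 5 CPM outside the family. Likeness was the mean absolute difference, over the 6 libraries, of log2 CPM relative to the PBS mean. For Ces1c, the member with the highest level per kb, the nearest were Hsd11b1 (0.046), which regenerates active glucocorticoid, Klb (0.051), the co-receptor of Fgf21, and Stard13 (0.053). For Ces1g, the member with the largest fold change, the nearest were Akr1d1 (0.076), a steroid reductase gene of bile acid synthesis, Gamt (0.169), which makes creatine, and Inmt (0.214), a methyltransferase gene. Akr1d1 had 33.3, 48.8 and 84.0 CPM in Lira161, Lira162 and Lira164 and 206, 154.8 and 272 CPM in PBS155, PBS157 and PBS158, the same order of libraries as in Ces1g.

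Markers of liver cells were read beside these results. Of 11 tested hepatocyte markers 0 passed in edgeR, and at an unadjusted p below 0.05 3 were lower and 1 higher. Their summed level was 87780 to 104300 CPM under liraglutide and 100100 to 121700 CPM under PBS, with Alb, the albumin gene, at 51368 ± 8970 against 68786 ± 11416 CPM. DESeq2's Wald test called 2 of them lower and 1 higher, and 2 were higher without Lira164.

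Summed macrophage markers ranged from 186 to 307 CPM under liraglutide against 83.2 to 325 CPM under PBS. In edgeR 0 of 7 passed, 0 also at an unadjusted p below 0.05 and by DESeq2's Wald test, and 1 was higher without PBS155. Stellate cell markers ranged from 319 to 370 against 192 to 325 CPM. Of them 0 of 8 passed in edgeR, and Rgs5 was higher by DESeq2's Wald test, by limma-voom and without PBS155, with 1 higher at an unadjusted p below 0.05. Endothelial markers ranged from 184 to 291 against 107 to 203 CPM, and 1 of 7, Clec4g, was higher (edgeR log2 fold change 0.78 ± 0.17, adjusted p = 0.0250). The median log2 fold change of the 7 was 0.74, and at an unadjusted p below 0.05 3 were higher and 0 lower. DESeq2's Wald test called Oit3 higher too. Clec4g did not pass without Lira161 (0.85), Lira162 (0.84), PBS157 (0.71) or PBS158 (0.68), and without PBS155 5 of the 7 were higher.

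Cholangiocyte markers, at 26.95 to 28.99 against 42.2 to 51.2 CPM in sum, were apart between the groups. Most of this sum was Spp1, at 20.5 ± 1.17 CPM under liraglutide against 36.3 ± 4.01 under PBS. Spp1 was lower (edgeR log2 fold change -0.82 ± 0.11, adjusted p = 0.00508), the only one of 6 to pass, and it did so under every alternative. At an unadjusted p below 0.05, 2 of the 6 were lower and 0 higher. Adipocyte markers summed to 9.12 to 23.1 against 6.38 to 7.30 CPM. Fabp4 was higher (edgeR log2 fold change 1.44 ± 0.34, adjusted p = 0.0438), but not without Lira161 (1.03), Lira162 (1.49), PBS155 (1.34), PBS157 (1.48) or PBS158 (1.5), nor by limma-voom (1.33) or without the low-count filter (1.44). The other tested marker, Cfd, was lower in all liraglutide libraries, at 0.210 ± 0.179 against 1.18 ± 0.765 CPM, and did not pass (-2.47 ± 0.67, edgeR adjusted p = 0.0544). Cfd was called lower by DESeq2's Wald test (-2.49), without the low-count filter (-2.47), without Lira164 (-3.42) and without PBS157 (-2.82). The defining adipocyte genes Adipoq, Plin1 and Lep had at most 3, 1 and 1 counts in a library, and Retn had 0.

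Pancreatic markers summed to at most 1.03 CPM, with 4 of 8 at 0. Blood cell markers summed to 12.2 to 14.8 against 5.18 to 14.8 CPM, and 0 of 4 passed in edgeR or by DESeq2's Wald test, with 1 higher at an unadjusted p below 0.05. Of 4 tested sex-linked genes 0 passed in either test or at an unadjusted p below 0.05, with Ddx3y at 99.5 ± 11.5 against 116 ± 11.8 CPM. The part of cell makeup in the values of the carboxylesterase genes was not tested.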

How the data were processed

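The deposited data were raw counts for each gene symbol in 6 libraries, in 1 table. Per the submitters' processing notes, STAR and the build mm10 were used. Not given in the sources used here are the counting tool, annotation, strand setting and read length. Column names carry the group and a number unlike the triplicate numbers in the labels, which ties each column to a group and to no single sample. Within groups, pairs of libraries differed by more than sampling noise (chi-square per degree of freedom 32.3 to 65.1).

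Genes were kept by filterByExpr (12626 of 16949 with at least 1 count), scaled by TMM and compared between the groups, with no covariate, by the quasi-likelihood test of edgeR 4.0.16 (robust glmQLFit, then glmQLFTest) under R 4.3.3. Adjustment of the two-sided p-values was by Benjamini-Hochberg over every tested gene. An SE is the log2 fold change divided by the square root of F. The procedure was tested on counts simulated with the same biological spread in every gene. There it called 35.9% of genes set to differ 1.5-fold, 93.9% at 2-fold and 100% at 4-fold, and 9 of 160 calls were false. Real genes differ in their spread, so these rates need not hold for a member. A member that did not pass may still differ, and not only by a small fold. The members and gene lists were chosen with earlier results of these data known. All 8 members are named. From each list came up to 3 called genes with the smallest p or, with none called, the most abundant tested one, and for 2 members the 3 most alike genes. TTATGTAA and the other motifs were chosen later.

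Positions, transcripts and coding sequences are from GENCODE M21 (GRCm38, the assembly of mm10), promoters from RefSeq. Coding sequences were aligned with Biopython 1.88. Alternatives were DESeq2 size factors, library totals, no low-count filter, a mean CPM of at least 5, the Wald test of DESeq2 1.42.0, limma-voom (limma 3.58.1), sums over subfamilies each library left out and, added after seeing the data, exon length for levels per kb. Figures were drawn with matplotlib 3.10.9.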

Additional observations from a re-analysis of the deposited data

How the results depend on the processing

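Every member's log2 fold change stayed below 0 in all 96 combinations of the 8 members with the 12 alternatives. DESeq2 size factors, library totals, a mean CPM of at least 5 and limma-voom each called 3 members, as in the fit reported, and so did the fit without the low-count filter, where Ces3a was called and Ces1g was not. DESeq2's Wald test called 6. Leaving out 1 library in turn gave between 1 and 5 called members, between 7 and 29 called genes of the pathway, carboxylesterase and transcription factor lists (20 with all libraries) and between 393 and 1496 changed genes (1107 with all libraries). The cause was not tested, although each of these fits has fewer samples. Ces1d was called throughout. With counts summed over a subfamily the number of members called has no counterpart, so only the sums' own values are given. The level of Ces1f minus that of Ces3b went from 35.7 to -60.7 CPM per kb under PBS, and from 62.0 to -1.42 under liraglutide, when the length of all exons replaced that of the longest coding transcript, an alternative chosen after seeing the data. No paired analysis was possible because the columns carry no triplicate number that ties them to the labels. With 3 libraries per group and 584 or more counts per member and library, the spread between libraries and not counting error limits these values.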
